A study of Mus musculus with 2 samples.

Results

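Guidance genes encode the ligands and receptors first known for steering growing axons, and 73 of them were followed on 2 arrays of mouse embryo cartilage. They were taken as every probe set whose only gene symbol named a semaphorin (Sema3 to Sema7), plexin, neuropilin, ephrin, Eph receptor, slit, robo, netrin, netrin receptor or repulsive guidance molecule (RGM). This gave 169 of the 45101 probe sets on the array, for 73 of 18193 named genes. Wild-type C57BL/6J embryos at E17.5, with no introduced allele or treatment, gave the cartilage of both groups. The WT Round array was hybridised with RNA of portions enriched in round chondrocytes, and the WT Columnar/Hypertrophic array (C/H below) with RNA of portions enriched in columnar and hypertrophic chondrocytes. Each array held a mixture of RNA from 3 cartilage plate portions, so each group was 1 array, no spread between portions or animals was measured, and no value below has a replicate error, a test or a p-value. The portions were enriched and not sorted, so they could hold other cells of the cartilage plate.

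Semaphorins act through plexins, and most of the secreted class 3 members first bind a neuropilin. Ephrins are tethered to the cell surface and signal through Eph receptors on the neighbouring cell, slits through robos, and netrins through DCC, neogenin and the UNC5 receptors, while RGMs bind neogenin and act as co-receptors for BMPs. Outside the nervous system these systems position blood vessels and nerves around developing bones, set boundaries between cell groups and act on osteoblasts and osteoclasts.

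The values were linear MAS5 signals in arbitrary units, scaled by the authors to the same mean on both arrays. Chemosensory receptor genes, which cartilage should not express, gave a floor of 100.5 (the 95th percentile of their 87 probe sets), and 55.0% of all probe sets lay above it on the round array and 50.8% on the other. For each gene the brightest probe set was used, any signal below the floor was set to it, and differences are given as log2 of the C/H over the round signal. Where only 1 array passed the floor, the gene gave a bound, written "at least". Signals in pairs are given with the round array first. Over 4825 genes measured by several probe sets on both arrays, differences within a gene had an SD of 0.367 on the log2 scale, which is a technical spread and not an error between animals. The zones were described by marker lists, which were chosen with earlier results of these data known and so are no independent check. Of 9 round and resting chondrocyte markers, 8 had C/H signals at least 2-fold lower, such as Cytl1 (14347 and 891), and of 8 measured hypertrophic markers 7 were higher, such as Col10a1 (24.2 and 10818), while Mmp13, a gene of terminal hypertrophy, was under the floor on both. All 9 general chondrocyte markers, among them Col2a1 and Acan, were measured and within 2-fold.

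Of the 73 guidance genes, 49 lay above the floor on the round array and 37 on the C/H array. Both arrays detected 32, 1 array alone detected 22 (17 the round and 5 the C/H array), and 19 were under the floor on both. Over all 18193 named genes these numbers were 10235, 1468 and 6490. Of the 1468, 1067 were above the floor on the round array alone and 401 on the C/H array alone. On the C/H array 15 (27.8%) of the 54 measured guidance genes had a signal at least 2-fold lower, where 6.37% of all 11703 measured genes were. At least 2-fold higher signals were found for 4 (7.41%), against 4.31% of all measured genes. The lower genes were Sema3a, Sema3c, Sema3e, Sema4b, Sema5a, Plxnb3, Nrp2, Efna5, Efnb3, Epha4, Epha7, Robo1, Ntn1, Ntng1 and Rgmb, and the higher genes were Sema3d, Nrp1, Epha5 and Unc5b. Bounds made up 10 of the 15 and 1 of the 4, and a gene detected on 1 array alone can only differ in that direction. Of the 32 guidance genes that both arrays detected, 5 passed 2-fold as lower and 3 as higher, against 5.42% and 3.98% of all such genes. The median difference of the measured guidance genes was -0.23, and that of all measured genes was -0.05. Scaling the arrays to equal medians moved the median gene by 0.28. Then 10 of 57 measured guidance genes were lower and 5 higher, against 3.93% and 8.21% of all measured genes. In RNA of mixed tissue, fewer cells that express a gene and less RNA per cell cannot be told apart.

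**Figure D1:**
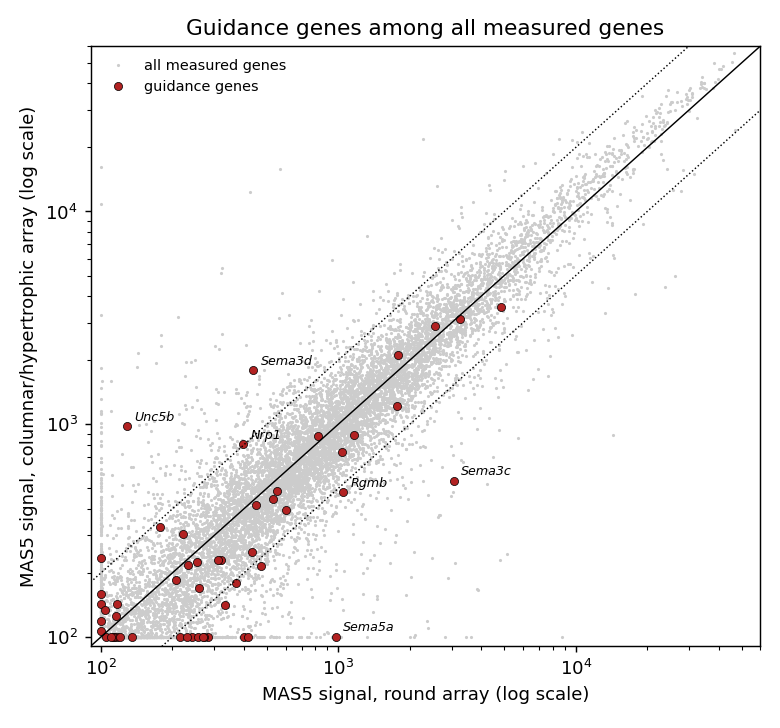
MAS5 signals of the measured genes, with the round array on the horizontal and C/H on the vertical axis (both log scales), 1 point per gene, with guidance genes in red, the solid line at equal signals and dotted lines at 2-fold; signals under the floor are drawn at it. Unc5b (129 and 978) and Sema3d (438 and 1794) lie above the upper dotted line, and Sema3c (3063 and 543) and Sema5a (978 and 95.6, drawn at the floor) lie under the lower one.

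Markers of other tissues were measured beside them. The perichondrium, fibroblast and tendon list went the same way as most of the guidance genes. Of its 12 genes, 10 were measured, 5 were at least 2-fold lower on the C/H array and 0 higher, with summed signals of 63363 on the round array and 23986 on the other. Dpt and Scx were under the floor on both arrays. Postn, a matrix gene of the perichondrium, had signals of 1919 and 158. The part of this tissue in the guidance gene differences was not tested. Of 11 endothelial markers, 9 were under the floor on both arrays, among them Pecam1 (10.3 and 7.56), Cdh5 (75.4 and 61.5) and Kdr (70.4 and 64.5). Esam passed it on the round array alone (152 and 65.4) and Egfl7 on both (206 and 247), and the list summed to 782 and 638. The axonal markers Tubb3 (5.91 and 5.95), Nefl (39.2 and 31.5), Nefm (7.79 and 30.9) and Stmn2 (98.3 and 47.4) were also under the floor. Prph (107 and 51.7) and Ngfr (116 and 77.2), of the same nerve and Schwann cell list, passed it on the round array alone. S100b, which chondrocytes express too, and Sox10 were within 2-fold. That list summed to 8529 and 9316. Sp7, an osteoblast transcription factor gene also active in prehypertrophic chondrocytes, went from 170 to 1940, with Dmp1 and Phex under the floor and sums of 380 and 2267 for the osteoblast list. Of the blood and macrophage list 3 of 7 were measured, with Lyz2 2.25-fold higher (130 and 293). Csf1r was lower within 2-fold (190 and 129), Cd68 passed the floor on the round array alone (130 and 70.5), and the sums were 537 and 554. The osteoclast list had 2 of 5 measured, neither of them past 2-fold, with sums of 1086 and 690. The muscle list had 3 of 6 measured, with Tnnt3 at least 4.26-fold higher (63.4 and 429). Acta1 (122 and 88.4) and Ckm (103 and 18.1) passed the floor on the round array alone, and the muscle sums were 343 and 548. The part of these cells in the guidance gene differences was not tested.

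**Figure D2:**
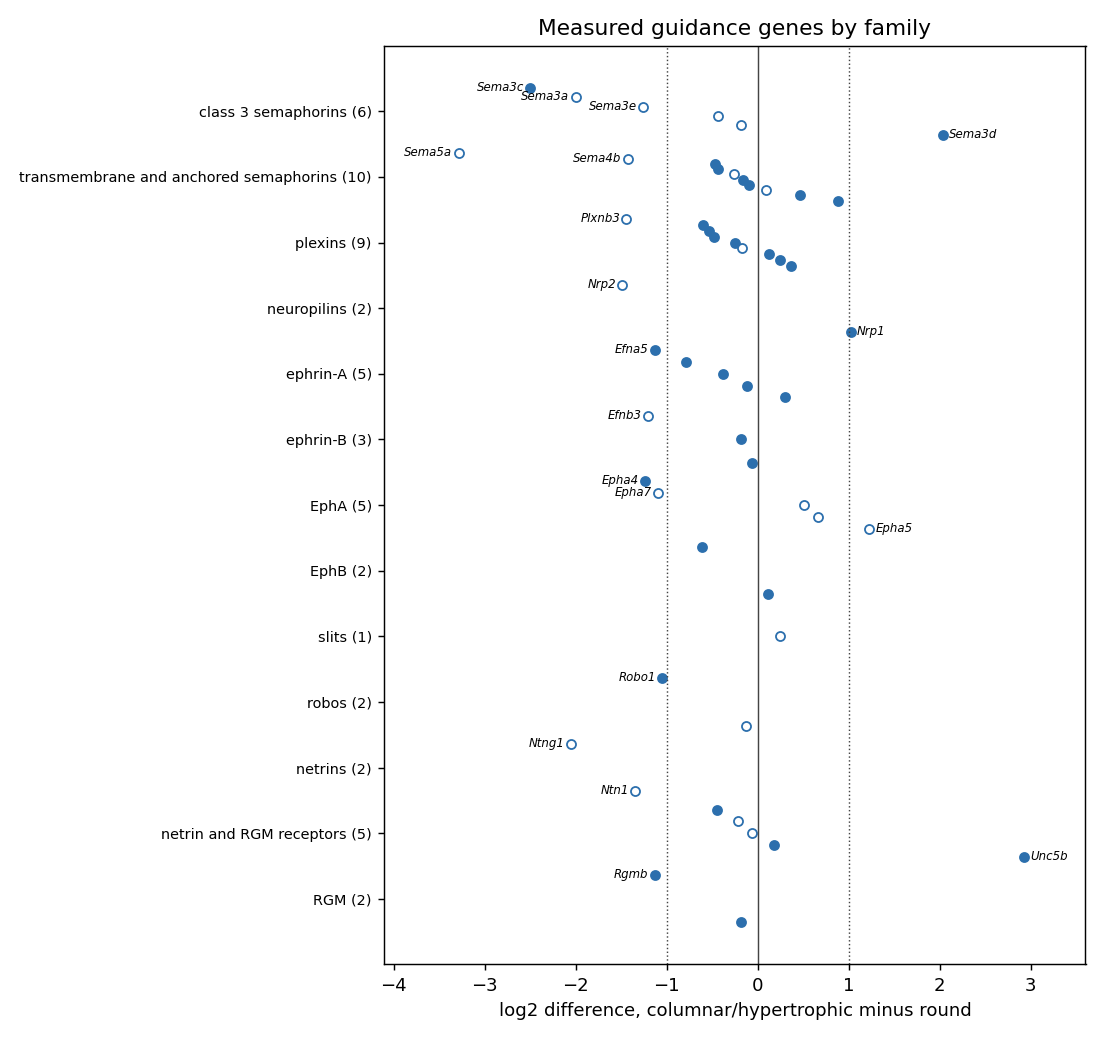
Log2 difference (C/H minus round, horizontal) of the 54 measured guidance genes by family (vertical, number of measured members in brackets), 1 point per gene, with open points for bounds and dotted lines at 2-fold. Most families have members on both sides of 0, the 15 lower genes are spread over 10 of the 13 families, and Unc5b and Sema3d stand farthest to the right.

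The secreted class 3 semaphorins held genes that differed in both directions. Sema3c, a secreted ligand best known in outflow tract and nerve development, had a signal of 3063 on the round array and 543 on the C/H array, a 5.64-fold lower signal (-2.50). Its other probe set went from 424 to 136 (-1.64). Sema3d, a related ligand that acts on endothelial and neural crest-derived cells, went the opposite way, from 438 to 1794, a 4.09-fold higher signal (2.03), and its other probe set was under the floor on the round array (55.5) and reached 462. Sema3a, the classical repellent of sensory axons and a factor that protects bone mass, had signals of 401 and 80.8, at least 3.99-fold lower. Its other measured probe set gave 173 and 33.1, a bound of -0.78. Sema3e, which signals through plexin-D1 without needing a neuropilin, had signals of 241 and 73.3, at least 2.40-fold lower, and its other measured probe set gave 192 and 48.7 (-0.93). In these 4 genes every measured probe set gave the direction of the brightest. Sema3g (136 and 43.1) and Sema3f (114 and 52.3) lay above the floor on the round array alone, by bounds of -0.43 and -0.18, and Sema3b was under it on both (84.7 and 64.3). The family counted 3 lower and 1 higher of 6 measured, with a median of -0.85.

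Sema3d, Sema3a, Sema3e and Sema3c lie in this order on chromosome 5 in the RefSeq gene table. No other protein-coding gene is listed between Sema3d and Sema3a, 3 are between Sema3a and Sema3e and 15 between Sema3e and Sema3c, so the gene with the higher signal and one with a lower signal are direct neighbours. The 250 bases before the start of each are shown because these genes differed in direction (RefSeq, GRCm38.p6, all on the plus strand, written 5′ to 3′). Capitals mark matches on either strand to TGTGGT, a core of RUNX sites, ACAAAG, a core of SOX sites, and TATAAA, the TATA box, none of which overlapped. They cover chr5:12382916-12383165 for Sema3d, chr5:13396534-13396783 for Sema3a, chr5:14025026-14025275 for Sema3e and chr5:17574566-17574815 for Sema3c.
Sema3d: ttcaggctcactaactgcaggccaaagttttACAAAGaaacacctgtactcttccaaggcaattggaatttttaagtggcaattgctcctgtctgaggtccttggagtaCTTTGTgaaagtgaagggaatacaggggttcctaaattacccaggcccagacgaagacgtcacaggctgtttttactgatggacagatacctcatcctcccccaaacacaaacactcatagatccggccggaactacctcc
Sema3a: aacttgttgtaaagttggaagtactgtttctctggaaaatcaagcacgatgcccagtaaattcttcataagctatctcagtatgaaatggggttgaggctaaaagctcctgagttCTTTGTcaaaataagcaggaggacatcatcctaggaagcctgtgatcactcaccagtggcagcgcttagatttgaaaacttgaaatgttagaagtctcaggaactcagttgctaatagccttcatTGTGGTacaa
Sema3e: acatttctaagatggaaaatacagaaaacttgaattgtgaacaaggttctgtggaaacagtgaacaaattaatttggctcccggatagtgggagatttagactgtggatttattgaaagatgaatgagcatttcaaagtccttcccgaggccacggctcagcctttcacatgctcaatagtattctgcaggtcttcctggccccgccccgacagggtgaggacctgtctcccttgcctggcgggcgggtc
Sema3c: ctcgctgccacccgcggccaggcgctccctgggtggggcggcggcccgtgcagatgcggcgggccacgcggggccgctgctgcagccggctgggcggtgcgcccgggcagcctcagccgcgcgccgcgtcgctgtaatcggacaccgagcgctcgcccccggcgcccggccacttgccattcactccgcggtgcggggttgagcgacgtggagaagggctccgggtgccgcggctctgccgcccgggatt
The Sema3d window held 2 SOX cores, the Sema3a window 1 SOX core and 1 RUNX core, and no match lay in the windows of Sema3e and Sema3c. Over all 32851 windows of this length in the table, 16.46% held the SOX core, 14.05% the RUNX core and 12.37% the TATA box. The 4 windows differed in base composition. Sema3c had 78.4% G and C with 39 CpG pairs, against 46.8% and 4 for Sema3d, 40.8% and 2 for Sema3a and 48.0% and 7 for Sema3e, and the median over all windows was 52.4% and 6. A match describes the letters alone.

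Among the membrane-bound semaphorins, Sema5a, which carries thrombospondin repeats and can bind plexin-B3, had the lowest difference of all guidance genes with the floor applied. Its signals were 978 on the round array and 95.6 on the other, at least 9.73-fold lower (-3.28), and another probe set went from 335 to 27.8, a bound of -1.74. With no floor, Ntn1, also known by a bound, was lower still (-6.01, against -3.35 for Sema5a), so the order of these bounds was not settled. Sema4b had signals of 270 and 94.6, at least 2.69-fold lower by its only measured probe set. The remaining 8 measured members did not reach 2-fold, with Sema5b and Sema6c known by bounds alone. Sema6d, a transmembrane ligand of plexin-A1, came nearest to 2-fold among genes with higher signals (178 and 328, 0.88). Its 2 other measured probe sets gave bounds of the opposite sign (128 and 34.5, and 111 and 33.8), and under equal medians, quantile normalization or lowess centring its brightest probe set passed 2-fold, so its direction was not settled. Sema4a was 0.46 by 1 probe set and -0.39 by the other. Sema4c (-0.47), Sema4g (-0.44), Sema4d (-0.16) and Sema6a (-0.10) were detected on both arrays, Sema6c (a bound of -0.26) on the round array alone and Sema5b (a bound of 0.09) on the C/H array alone. Sema4f, Sema6b and Sema7a were under the floor on both.

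Among the semaphorin receptors, the neuropilins went opposite ways. Nrp1, the co-receptor of Sema3a and of VEGF-A, gave 397 and 805 in its brightest probe set. This was a 2.03-fold higher signal on the C/H array, just past 2-fold. Its 3 other probe sets went from 166 to 607, from 124 to 477 and from 112 to 236, so all 4 were at least 2-fold higher (1.02 to 1.95). Nrp2, the co-receptor preferred by Sema3f, went from 282 to 97.0, at least 2.81-fold lower, with bounds of -0.89 and -0.75 by 2 other probe sets. Of the 9 plexins, all of them measured, 8 did not reach 2-fold, with Plxna4 known by a bound alone. Plxnb3, a receptor for Sema5a, was at least 2.72-fold lower (273 and 24.0), but its other probe set was close to the floor (109 and 74.8, a bound of -0.12). Plxnb2, a receptor for class 4 semaphorins, had signals of 1779 and 2105 (0.24), Plxnb1 1763 and 1215 (-0.54), Plxna3 1038 and 744 (-0.48, and -1.26 by its other probe set) and Plxna1 528 and 443 (-0.25). Plxnd1, the receptor of Sema3e, was near the floor on both arrays (116 and 126), as were Plxna2 (104 and 134) and Plxna4 (113 and 86.4). Plxnc1 was -0.60 by its brightest probe set and 0.09 by another.

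The windows before the starts of the neuropilin genes, which went opposite ways, were chr8:128358823-128359072 for Nrp1 and chr1:62703067-62703316 for Nrp2 (plus strand, same build and marking).
Nrp1: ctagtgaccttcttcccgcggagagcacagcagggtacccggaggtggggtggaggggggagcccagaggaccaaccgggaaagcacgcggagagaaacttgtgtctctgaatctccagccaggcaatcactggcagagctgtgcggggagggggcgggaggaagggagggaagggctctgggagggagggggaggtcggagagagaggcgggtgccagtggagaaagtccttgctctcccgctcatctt
Nrp2: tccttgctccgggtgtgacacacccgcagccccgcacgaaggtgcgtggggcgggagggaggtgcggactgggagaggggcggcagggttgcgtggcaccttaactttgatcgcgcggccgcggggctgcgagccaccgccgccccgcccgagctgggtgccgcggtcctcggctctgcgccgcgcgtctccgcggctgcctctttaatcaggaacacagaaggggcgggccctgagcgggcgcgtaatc
Both were rich in G and C (64.4% and 72.4%), with 11 CpG pairs for Nrp1 and 32 for Nrp2, and neither held any of the 3 motifs.

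**Figure D3:**
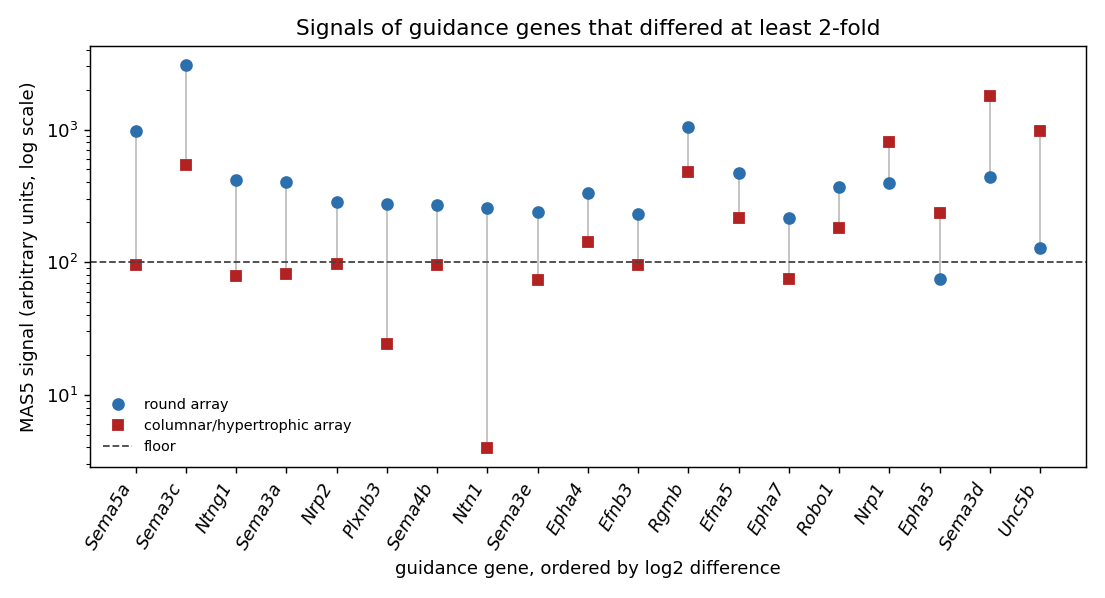
MAS5 signal (vertical, log scale, arbitrary units) for round (circles) and C/H (squares), with 1 array per group, of the 19 guidance genes that differed at least 2-fold, ordered by difference, and a dashed line at the floor of 100.5. In 10 of the 15 lower genes the square lies under the floor, and for Epha5 the circle does.

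All 8 ephrins were measured. The ephrin-A genes, whose products are held by a lipid anchor, had 4 of 5 differences under 0 with a median of -0.38. Efna5 was 2.18-fold lower on the C/H array (472 and 216) by its only measured probe set, and fell short of 2-fold under equal medians, quantile normalization and lowess centring. Efna4 came nearest to 2-fold without reaching it among the lower genes (432 and 251, -0.78). Efna1 (1166 and 894) and Efna2 (452 and 415) were within 2-fold in both of their probe sets, as was Efna3 (117 and 143). Among the transmembrane ephrin-B genes, Efnb2, which marks arterial endothelium and is also made by skeletal cells, had signals of 3259 and 3114 (-0.07), and its 3 other measured probe sets lay between -0.23 and 0.25. Efnb1, whose loss disturbs skeletal patterning, had signals of 552 and 485 (-0.19, and 0.22 and 0.21 by others), so no direction was settled. Efnb3 was at least 2.30-fold lower (231 and 95.9), and fell short of 2-fold under equal medians (-0.99), as log2(signal + 50) (-0.95) and with a 99th percentile floor (-0.67).

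Of 13 Eph receptors 7 were measured. Epha4, which binds ephrins of both classes, was 2.36-fold lower on the C/H array (332 and 141), and its other measured probe sets went from 306 to 143 (-1.10) and from 168 to 105 (-0.68). Epha7 was at least 2.14-fold lower (215 and 74.5), with bounds of -0.91 and -0.42 by 2 other probe sets. Epha5 was at least 2.33-fold higher (74.9 and 235), with bounds of 0.48 and 0.09 by 2 others. Epha8 (28.1 and 160) and Epha2 (28.4 and 142) crossed the floor in the same direction, with bounds of 0.67 and 0.50. The EphA median was thus 0.50 with bounds and -1.24 for Epha4 alone, the only member above the floor on both arrays. Ephb3 (820 and 884, 0.11) and Ephb4, the receptor of ephrin-B2 (603 and 394, -0.61), were within 2-fold. Epha1, Epha3, Epha6, Epha10, Ephb1 and Ephb6 were under the floor on both arrays.

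Slit and robo genes were few. Robo1, a slit receptor, was 2.07-fold lower on the C/H array (371 and 180), just past 2-fold. It fell under 2-fold in each of the 3 other scalings. Robo2 was near the floor (110 and 62.0), and Robo3 and the endothelial Robo4 were under it on both arrays. Of the ligands, Slit2 was above the floor on the C/H array alone (42.1 and 119, a bound of 0.25), while Slit1 (35.5 and 43.2) and Slit3 (3.80 and 48.8) were under it.

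With the floor applied, the netrin system had the gene with the highest difference. Unc5b, a netrin receptor known from the tips of growing vessels, had a signal of 129 on the round array, close to the floor, and 978 on the C/H array, a 7.60-fold higher signal (2.93). Its other probe set went from under the floor (86.2) to 527, at least 2.39 on the log2 scale. Unc5c, a related receptor, was bright on both arrays and within 2-fold (2559 and 2902, 0.18, and 1611 and 2146 by its other probe set). Neo1, encoding neogenin, had signals of 4853 and 3551 (-0.45), and 4 of its 5 probe sets lay under 0, between -1.21 and -0.37, with the fifth at 0.24. Unc5a (116 and 22.2) and Dcc (105 and 55.0) were above the floor on the round array alone, by bounds of -0.21 and -0.06. Unc5d was under it on both.

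The window before the start of Unc5b is shown for the gene with the highest difference (chr10:60831582-60831831, minus strand, written along the gene).
Unc5b: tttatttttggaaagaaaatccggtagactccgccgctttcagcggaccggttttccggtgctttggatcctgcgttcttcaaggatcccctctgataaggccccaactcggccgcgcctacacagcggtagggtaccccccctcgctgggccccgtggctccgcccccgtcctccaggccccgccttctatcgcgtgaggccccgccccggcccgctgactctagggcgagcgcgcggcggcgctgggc
It had 66.8% G and C, 27 CpG pairs and none of the 3 motifs.

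Of the 8 netrin and RGM ligands, 4 were measured and 3 of these were at least 2-fold lower. Ntn1, encoding netrin-1, had signals of 256 and 3.97, at least 2.55-fold lower by its only measured probe set. Ntng1, which encodes a netrin-G tethered by a lipid anchor and acting apart from DCC and UNC5, was at least 4.14-fold lower (416 and 78.8), with bounds of -1.60 and -0.50 by 2 other probe sets. Ntn3, Ntn4, Ntn5 and Ntng2 were under the floor on both arrays. Rgmb, a neogenin ligand and BMP co-receptor, was 2.19-fold lower (1048 and 478), and fell short of 2-fold under equal medians (-0.85). All 6 of its probe sets were lower, 4 of them by at least 2-fold, with 1 near the floor (102 and 42.8). Rgma was within 2-fold (254 and 225).

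Set side by side, with RGMs counted as ligands, 10 (34.5%) of 29 measured ligands were at least 2-fold lower on the C/H array and 1 (3.45%) was higher. Of 25 measured receptors, neuropilins included, 5 (20%) were lower and 3 (12%) higher. Over all measured genes 6.37% were lower and 4.31% higher. Bounds made up 12 of the 29 and 10 of the 25, and of the lower ligands only Sema3c, Efna5 and Rgmb were above the floor on both arrays. The medians of ligands and receptors were -0.38 and -0.17, or -0.18 and -0.25 over genes detected on both, so the order of the medians turned with the bounds. The difference between ligands and receptors was not tested. Partners did not always share a direction, as Sema3a was lower and Nrp1 higher, Ntn1 lower and Unc5b higher, whereas Sema5a and Plxnb3 were both lower.

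**Figure D4:**
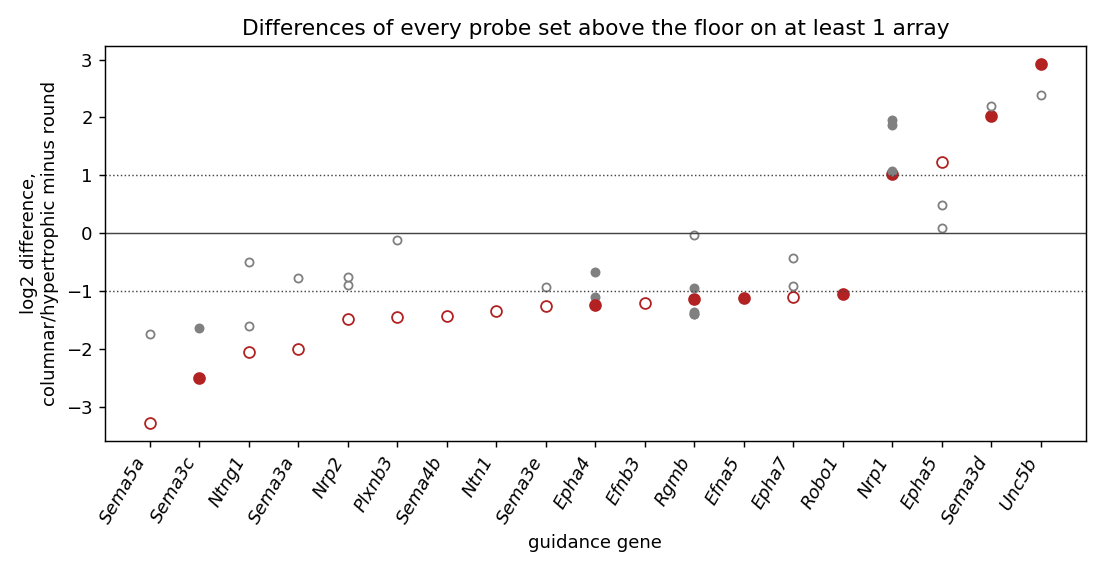
Log2 difference (vertical, C/H minus round) of every probe set above the floor on at least 1 array for the 19 genes, with the brightest probe set of a gene in red, its others in grey, open points for bounds and dotted lines at 2-fold. For each gene all points lie on 1 side of 0, and for Sema5a, Sema3c, Nrp1, Sema3d and Unc5b all points are past 2-fold.

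Second probe sets gave a technical check of direction. Of the 19 genes, 14 had over 1 measured probe set, and in 14 of the 14 every one lay on the same side of 0. In 5 of them, Sema3c, Sema3d, Sema5a, Nrp1 and Unc5b, every measured probe set was past 2-fold. The other 5 genes, Efna5, Efnb3, Ntn1, Robo1 and Sema4b, rested on 1 measured probe set. Beside the brightest, further probe sets passed the floor on both arrays only for Epha4, Nrp1, Rgmb and Sema3c. In the rest of the 14 genes they gave bounds, and the sign of a bound is set by the array that passed the floor. Probe sets under the floor on both arrays were left out, such as 1 of Epha4 (84.2 and 92.3). Over single probe sets, 24 of 98 measured were at least 2-fold lower (6.00% of all named probe sets measured) and 9 higher (4.27%). A gene with many probe sets counts more often in these numbers.

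**Figure D5:**
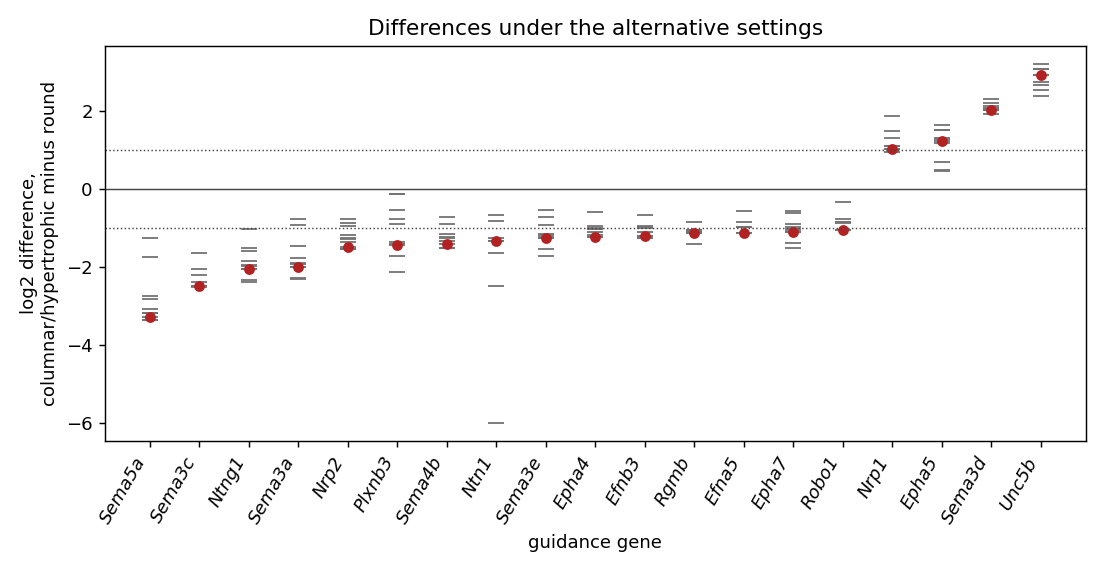
Log2 difference (vertical, C/H minus round) of the same 19 genes as reported (red points) and under up to 10 other settings of scaling, floor and choice of probe set (grey bars), with dotted lines at 2-fold. No bar crosses 0, and Sema5a, Sema3c, Ntng1, Sema3d and Unc5b stay past 2-fold throughout, while Plxnb3 reaches -0.12 and Ntn1 spans -6.01 to -0.67. A change of floor or of choice among measured probe sets could not move a bar across 0.

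Under 10 other settings of scaling, floor and choice of probe set, 19 of the 19 genes kept their sign, and 5 of them, Sema3c, Sema3d, Sema5a, Unc5b and Ntng1, stayed past 2-fold in every setting that gave a value. Averaging the probe sets of a gene brought 11 of the 19 under 2-fold (Sema3a, Sema3e, Sema4b, Plxnb3, Nrp2, Efna5, Epha4, Epha5, Epha7, Robo1 and Ntn1), where probe sets under the floor counted as 0. A floor at the 99th percentile (145) brought 8 under it (Sema3e, Sema4b, Plxnb3, Nrp2, Efnb3, Epha5, Epha7 and Ntn1), and equal medians 5 (Efna5, Efnb3, Epha4, Robo1 and Rgmb). By the second brightest probe set 6 fell short (Sema3a, Sema3e, Plxnb3, Nrp2, Epha5 and Epha7), as log2(signal + 50) 4 did (Nrp1, Efna5, Efnb3 and Robo1), and under quantile normalization 3 did (Efna5, Epha7 and Robo1). Plxnb3 fell short in 5 settings, as did Efna5 and Robo1.

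Genes that act with or below these receptors were also listed. Of 55 such genes, 52 were on the array with a name and 44 were measured, of which 5 (11.4%) were at least 2-fold higher on the C/H array and 2 (4.55%) lower, against 4.31% and 6.37% of all genes, with a median of -0.01. Gpc1, encoding the heparan sulfate proteoglycan glypican-1 that binds slits, was 5.07-fold higher (833 and 4222). Flrt2, a membrane protein that binds UNC5 receptors, was 2.67-fold higher (411 and 1099). Dpysl4, of the collapsin response mediator family, was 2.77-fold higher (289 and 802), and L1cam, an adhesion molecule that associates with neuropilin-1, 2.58-fold higher (137 and 354). Chn1, a Rac-inactivating protein below EphA4, was at least 2.25-fold higher (54.7 and 226). Srgap3, whose product binds robos, was 3.12-fold lower (392 and 126). Nck2, an adaptor used by several guidance receptors, was 2.45-fold lower (1177 and 480). All these folds came from the brightest probe set. With the mean of probe sets 3 of 44 downstream genes were at least 2-fold higher and 0 lower, against 3.17% and 4.19% of all measured genes. By the second brightest probe set 3 of 25 were higher and 0 lower, against 4.33% and 5.54%. The remaining 37 measured genes did not reach 2-fold by their brightest probe set. Among them Nrcam (56.1 and 196, at least 1.95-fold higher), Vav3 (80.7 and 145), Cd72, Draxin and Kalrn gave bounds, so the size of their difference was not settled.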

How the data were processed

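Total RNA of 3 cartilage portions per group was mixed by the authors and hybridised to 1 Affymetrix mouse array per group. The deposited values are linear intensities, 1 MAS5 signal per probe set, scaled by the authors to a 2% trimmed mean of 500.0 on each array (version and genome build are not given in the sources used here). The study's methods name RMA, but the deposited values were linear and differed in distribution between the arrays, as MAS5 signals do. MAS5 signals of dim genes are noisy, and scaling to 1 mean assumes comparable total signal. Gene names came from the platform annotation (34945 probe sets with 1 symbol, 18193 genes), chromosomes and promoters from RefSeq (GRCm38.p6), where 62 of the 73 genes matched a promoter entry.

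The floor, the choice of probe set and the 2-fold rule are given with the results, and no test was possible with 1 array per group, whose number limits the precision. Genes at least 2-fold different, the brightest of each system, those nearest to 2-fold and those with discordant probe sets were named by rule, and other members were named to account for every gene. The members and lists were chosen with earlier results of these data known. The script was tested on simulated data. Python 3.11.15, pandas 2.3.3, numpy 2.4.6 and statsmodels 0.14.6 were used. Alternatives were 3 scalings (equal medians, quantile, lowess with span 0.3), floors at the 90th and 99th percentiles, no floor, log2(signal + 50), other probe set choices, and 1.5-fold and 3-fold rules.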

Additional observations from a re-analysis of the deposited data

How the results depend on the processing

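No paired analysis was possible because each group was 1 array, and no replicate could be left out. The number of lower guidance genes was 15 of 54 as reported and 8 of 41 with the floor at the 99th percentile. It was 5 of 54 with the mean of probe sets, 6 of 26 with the second brightest probe set and 4 of 54 under the 3-fold rule. Of all measured genes 6.37% were lower as reported, and 5.54%, 4.19%, 5.54% and 2.09% in these other settings in turn. The number of higher guidance genes was 4 of 54 as reported, 9 of 73 with no floor and no filter and 2 of 54 under the 3-fold rule. Of all genes 4.31%, 9.04% and 1.58% were higher in the same order. The median of all guidance genes lay between -0.47 and -0.11. Family medians of few genes moved most. The EphA median, 0.50 as reported, was -0.21 with the floor at the 99th percentile, -0.59 with no floor, -0.91 by the second brightest probe set, -0.21 without the _s_at, _x_at and _a_at probe sets and -0.12 as log2(signal + 50). The netrin median, -1.70 as reported, was -1.17 with the floor at the 99th percentile, -0.35 with no floor, -0.86 with the mean of probe sets and -0.081 as log2(signal + 50). With the floor at the 99th percentile the robo median was -1.05. With no floor the class 3 semaphorin median was -1.66, EphB 0.19, slits 1.51 and the netrin and RGM receptors -0.69. The neuropilin median was 0.35 with the mean of probe sets and 0.49 by the second brightest, where the netrin and RGM receptors gave 0.41 and RGM -1.41. Without the _s_at, _x_at and _a_at probe sets the class 3 semaphorin median was -1.26, and as log2(signal + 50) EphB was 0.12 and slits 0.88. The cause was not tested. The other family and list medians moved by less than the SD between probe sets, and the other counts of all guidance genes stayed within 1.5 times, while counts within families moved further, such as 0 EphA genes higher and 0 lower with the mean of probe sets, against 1 and 2 as reported. With the mean of probe sets, 3 downstream genes were higher and 0 lower, and with equal medians 8 and 2, against 5 and 2 as reported. Of all measured genes, 3.17% were higher and 4.19% lower with the mean of probe sets, and 8.21% and 3.93% with equal medians. Signals close to the floor of 100.5 limit all bounds.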
